A study of Mus musculus with 15 samples.

Results

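The genes described are 7 subunits of the GABA-A receptor, Gabra2, Gabra3, Gabra5, Gabra6, Gabrb1, Gabrb2 and Gabrd, which were listed by name. All 7 were found among the 21889 genes of the deposited gene table, and all 7 passed the filter on low counts that left 15259 genes for testing. They were measured by RNA-seq of poly(A) RNA in 15 mouse cerebellar libraries, 3 in each of 5 groups. Granule neuron precursors (GNPs), the dividing cells that become cerebellar granule neurons, were collected at embryonic stage E15.5 from Math1-GFP mice and at postnatal days 1, 7 and 14 (P1, P7 and P14) from wild-type (WT) mice. The last group (MB) was medulloblastoma cells, a cerebellar tumour, from Ptch1 heterozygous mice, with no age given. All cells were purified on Percoll, a density gradient that enriches cells by buoyancy and selects no marker. The E15.5 group differed from the other ages in genotype as well as age, so the effects of age and genotype cannot be told apart there. MB differed from the P7 and P14 groups in genotype and in being tumour, and its age is not given. The effects of these cannot be told apart either. The labels do not say whether replicates came from separate animals, so the p-values measure only the spread between these libraries.

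GABA-A receptors are chloride channels opened by the transmitter GABA, and each is built from several subunits of different classes. Most hold alpha and beta subunits together with either a gamma subunit, which anchors the receptor at synapses, or the delta subunit, which is found outside synapses and carries a lasting (tonic) current. In the cerebellum, alpha6 and delta are hallmarks of mature granule neurons, whereas alpha2, alpha3 and alpha5 are best known from immature neurons and from other brain regions.

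Libraries held between 12597472 and 43443132 counts in genes. The granule precursor markers, a list that includes the lineage factor Atoh1, were detected in every group. Atoh1 itself lay at 123.6 to 138.5 CPM (counts scaled to a common library size) at E15.5 and 24.5 to 65.4 CPM at P1. It lay at 23.6 to 39.1 CPM at P7, 10.9 to 13.1 CPM at P14 and 235.8 to 321.8 CPM in MB. Between P14 and P7, 0 of the 9 markers were called higher, 4 were lower and 5 were not called, where 5.81% of all genes were higher and 4.51% lower. Mki67 of this list lay at 1314 to 2150 CPM at P7 and 447.8 to 635.0 CPM at P14. Of the 9 markers 6 were called higher and 2 lower in MB than at P14, against 22.9% and 27.2% of all genes. Pax6 lay at 423.2 to 431.6 CPM at P14 and 117.6 to 294.0 CPM in MB. The library labelled P1 replicate 3 stood apart from its group: its root mean square log2 distance to the P14 mean was 0.448 and to the mean of the other P1 libraries 0.593. Results that rest on it are given with and without it. The gene table also fell into 2 sets of libraries that differed in how some genes were counted. In 6 libraries (all 3 P7 libraries, E15.5 replicates 1 and 3 and MB replicate 1) the gene Tsnax was counted at 0 to 0.273% of its reads in the transcript table, against 92.4 to 94.8% in the other 9. For the 7 subunits the median of this ratio was similar in both sets, from 97.4 to 99.6%, except for Gabra5 with 86.9% in the 6 libraries and 92.5% in the 9. Because P7 fell wholly in one set and P1 and P14 wholly in the other, P7 cannot be compared with either inside 1 set.

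Values by library are given in CPM, scaled by edgeR's TMM factors, and a gene was called when its false discovery rate (FDR) over all tested genes was under 0.05. A CPM value compares libraries for 1 gene. It does not compare genes of different length.

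Gabra6 encodes alpha6, the subunit typical of mature granule neurons, and lies on chromosome 11 from 42119940 to 42134553 on the minus strand of the mm9 build. No count of it was found in any of the 3 E15.5 libraries, for which a count of 3 over the group was taken as the upper limit. It lay at 1.12, 12.5 and 101.7 CPM in the 3 P1 libraries, at 10.3, 9.49 and 2.54 CPM at P7, and at 160.6, 201.7 and 163.6 CPM at P14. The MB libraries held 1.11, 0.220 and 0.440 CPM. All P14 libraries were therefore above every other library, and P1 replicate 3 was the next highest, well above the rest of its group and all P7 libraries.

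Against E15.5, pooled Gabra6 counts were at least 980-fold higher at P1 (FDR 5.49e-04) and at least 4288-fold higher at P14 (FDR 1.08e-04). Both bounds depend on E15.5 depth and were 468.7-fold and 2050-fold without E15.5 replicate 3. Without P1 replicate 3 the P1 bound was 172.9-fold and the gene was still called (FDR 6.63e-04). The 9 libraries of 1 counting set hold a single E15.5 library, taken to vary like the others, and there the fitted log2 change was 13.05 (FDR 0.0718) against 13.1 with all libraries, values that depend on the prior count since E15.5 is at 0. From P7 to P14 Gabra6 rose by 4.55 ± 1.11 on the log2 scale (SE, FDR 0.0250), a ratio of pooled counts of 22.3 with a 95% counting interval of 20.8 to 24.1. That call did not survive leaving out any single P7 or P14 library, where the log2 change was 4.15 to 4.82 and the FDR 0.0558 to 0.102. P14 against P1 gave 2.19 (FDR 0.176) with all libraries and 4.68 (FDR 0.00448) without P1 replicate 3.

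Gabra3 encodes alpha3, which forms receptors in immature neurons and in brainstem and monoaminergic cells, and lies on the X chromosome (mm9 69678020 to 69901525, minus strand). Its levels were 36.5, 53.0 and 49.2 CPM at E15.5, 11.2, 8.26 and 10.9 CPM at P1, 13.2, 21.1 and 14.2 CPM at P7 and 8.73, 9.40 and 9.36 CPM at P14. In MB they were 2.66, 3.93 and 1.80 CPM. The E15.5 libraries were all above the rest, the MB libraries were all below, and P1 and P14 overlapped. Gabra3 fell by 2.19 ± 0.28 on the log2 scale from E15.5 to P1 (FDR 2.59e-05) and was 2.33 lower at P14 than at E15.5 (FDR 1.04e-05). The P7 libraries lay above both the P1 and the P14 libraries without passing the test (0.67 against P1, FDR 0.186, and -0.82 for P14 against P7, FDR 0.0671).

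Gabra5 encodes alpha5, known mainly from hippocampal receptors outside synapses, and lies on chromosome 7 (mm9 64663060 to 64765379, minus strand), where 1 other transcript overlaps its span. It was the scarcest member at most ages, with 2.53, 6.01 and 5.20 CPM at E15.5, 1.25, 0.853 and 1.39 CPM at P1 and 0.818, 1.38 and 1.19 CPM at P7. It lay at 0.506, 0.603 and 0.702 CPM at P14 and at 0.635, 0.171 and 0.160 CPM in MB, where 27 counts were found in all. The E15.5 libraries were all above the rest, P1 and P7 overlapped, and MB replicate 1 lay within the P14 range. The fall from E15.5 to P1 was 1.97 ± 0.46 on the log2 scale (FDR 0.00281), and P14 was 2.91 below E15.5 (FDR 1.60e-04).

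Gabra2 encodes alpha2, which is prominent at synapses of the developing forebrain, and lies on chromosome 5 (mm9 71352296 to 71487088, minus strand). Its values were 12.2, 22.9 and 11 CPM at E15.5, 14.9, 12.2 and 30.7 CPM at P1, 20.3, 10.5 and 34.0 CPM at P7 and 38.1, 30.9 and 32.9 CPM at P14. MB held 0.714, 1.39 and 3.76 CPM. E15.5, P1 and P7 overlapped one another, P14 lay above E15.5 and P1 but not above P7 replicate 3, and MB lay below every GNP library. Gabra2 was the 1 member not called in the test for any difference among the 4 ages (FDR 0.229), and P14 against E15.5 gave 1.16 ± 0.52 (FDR 0.0762). That difference was called by DESeq2 (1.14, FDR 0.0480), with only the groups compared (1.19, FDR 0.00929) and without E15.5 replicate 2 (1.55, FDR 0.0430), while with the counting set as a term it was 0.34 (FDR 0.673).

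The 250 bases upstream of the RefSeq start (build GRCm38.p6, minus strand in each case) are shown for the 4 alpha members, because this class holds both the member with the steepest rise and the 2 that fell with age. Capitals mark TTGGC or its reverse complement GCCAA, the core sequence bound by nuclear factor I proteins, which are known regulators of granule neuron maturation. The window of Gabra6 is chr11:42321073-42321322, that of Gabra2 chr5:71095850-71096099, that of Gabra3 chrX:72656808-72657057 and that of Gabra5 chr7:57510060-57510309.
Gabra6: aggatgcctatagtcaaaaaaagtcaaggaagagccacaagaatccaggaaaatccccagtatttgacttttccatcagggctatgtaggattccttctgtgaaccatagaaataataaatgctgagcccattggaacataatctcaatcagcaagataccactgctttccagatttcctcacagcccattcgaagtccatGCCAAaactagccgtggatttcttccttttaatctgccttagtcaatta
Gabra2: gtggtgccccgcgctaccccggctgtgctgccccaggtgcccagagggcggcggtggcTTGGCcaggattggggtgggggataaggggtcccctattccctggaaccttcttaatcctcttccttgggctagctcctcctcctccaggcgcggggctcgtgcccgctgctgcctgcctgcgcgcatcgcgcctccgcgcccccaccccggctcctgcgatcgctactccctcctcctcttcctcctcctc
Gabra3: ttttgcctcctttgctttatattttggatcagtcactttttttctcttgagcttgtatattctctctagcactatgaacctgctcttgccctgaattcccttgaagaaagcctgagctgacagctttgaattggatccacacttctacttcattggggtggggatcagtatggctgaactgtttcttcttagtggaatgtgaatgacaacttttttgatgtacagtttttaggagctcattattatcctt
Gabra5: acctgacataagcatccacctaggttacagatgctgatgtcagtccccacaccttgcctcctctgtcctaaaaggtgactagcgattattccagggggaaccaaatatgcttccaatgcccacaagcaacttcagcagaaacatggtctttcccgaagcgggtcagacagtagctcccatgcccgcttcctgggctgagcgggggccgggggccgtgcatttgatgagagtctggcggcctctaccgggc

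Gabra6 and Gabra2 each held 1 such match and the windows shown for Gabra3 and Gabra5 held 0, while 41.5% of all 32851 RefSeq windows of this length held at least 1. A match is a run of letters, not a shown binding site. In base composition the Gabra2 window had 70.0% GC and 18 CpG dinucleotides, more than 78.3% of all windows. The Gabra5 window had 56.4% GC and 9 CpG, the Gabra6 window 40.8% and 2, and the Gabra3 window 39.2% and 0, against medians of 52.4% and 6 over all windows. The E-box CANNTG, the core of sites for Atoh1 and related factors, was found 2 times in the Gabra5 window, 1 time in that of Gabra2 and not in the other two windows, and 66.2% of all windows held it. TATAAA was found 1 time in the Gabra3 window and in none of the other windows shown, and 12.4% of all windows held it. Both strands were searched. RefSeq windows were matched for 6 of the 7 members.

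Gabrb2 encodes beta2, a partner of alpha6 in the adult cerebellum, and lies on the plus strand of chromosome 11 (mm9 42233259 to 42446092), next to Gabra6. It lay at 65.7, 84.4 and 70.3 CPM at E15.5, 40.7, 41.5 and 88.3 CPM at P1, 40.3, 29.3 and 23.7 CPM at P7 and 98.6, 94.6 and 97.1 CPM at P14. MB held 5.20, 6.13 and 6.24 CPM. All P7 libraries were below all E15.5, P1 and P14 libraries, narrowly so for P7 replicate 1 against P1 replicate 1. The P7 group mean was the lowest of the 4 ages, and the MB libraries were below every GNP library. Gabrb2 rose from P7 to P14 by 1.64 ± 0.27 on the log2 scale (FDR 0.00779), a call kept when any 1 library of either group was left out but not with the counting set as a term (1.36, FDR 0.0793). The lower values at P7 than at P1 did not pass (-0.87, FDR 0.0878), and P14 against E15.5 gave 0.40 (FDR 0.229), or 0.43 (FDR 0.0316) with only those groups in the fit. Without P1 replicate 3, Gabrb2 was called lower at P1 than at E15.5 (-0.84, FDR 0.00725) and higher at P14 than at P1 (1.24, FDR 0.00173). With it the values were -0.37 (FDR 0.274) and 0.77 (FDR 0.0825).

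Gabrb1 encodes beta1, of the class that forms the GABA-binding site together with alpha, and lies on chromosome 5 (mm9 72091171 to 72529628, plus strand), in the same cluster as Gabra2. Its levels were 1.27, 2.26 and 0.893 CPM at E15.5, 12.1, 14.7 and 20.8 CPM at P1, 14, 10.7 and 13.6 CPM at P7 and 25.5, 25.1 and 19.8 CPM at P14. In MB they were 2.34, 5.69 and 4.36 CPM. Every postnatal GNP library was above every MB library and every MB library above every E15.5 library. Gabrb1 rose by 3.50 ± 0.39 on the log2 scale from E15.5 to P1 (FDR 6.58e-06), and P14 was 19.1-fold above E15.5 in pooled counts (log2 4.07, FDR 1.29e-06). Among the postnatal ages no step passed the test, and P14 against P7 gave 0.88 (FDR 0.102).

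Gabrd encodes delta, the subunit of receptors outside synapses, and lies on chromosome 4 (mm9 154759089 to 154772221, minus strand). It was found at 0.0872, 0 and 0.0525 CPM at E15.5, 4 counts in all, and at 0.386, 3.10 and 25.6 CPM at P1. It reached 4.47, 4.14 and 3.35 CPM at P7 and 41.5, 49.9 and 49.8 CPM at P14, and lay at 0.516, 0.0977 and 0.480 CPM in MB. As with Gabra6, the P14 libraries were the highest and P1 replicate 3 came next, while P1 overlapped P7. The ratio of pooled counts of P14 to E15.5 was 862, with a counting interval of 336 to 3163 (FDR 4.43e-05), and that of P1 to E15.5 was 185, from 72.0 to 681 (FDR 4.97e-04). Without P1 replicate 3 the latter was 33.1, from 12.5 to 124.0, and the gene was still called (FDR 8.13e-04). With the single E15.5 library of the 9-library counting set, which had no Gabrd count, the FDR was 0.0997. The rise from P7 to P14 was 3.56 ± 0.90 on the log2 scale (FDR 0.0245), and it failed with an FDR of 0.0594 to 0.106 when any 1 of those 6 libraries was left out. P14 against P1 gave 2.28 (FDR 0.0977) with all libraries and 4.74 (FDR 5.19e-04) without P1 replicate 3.

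**Figure D1:**
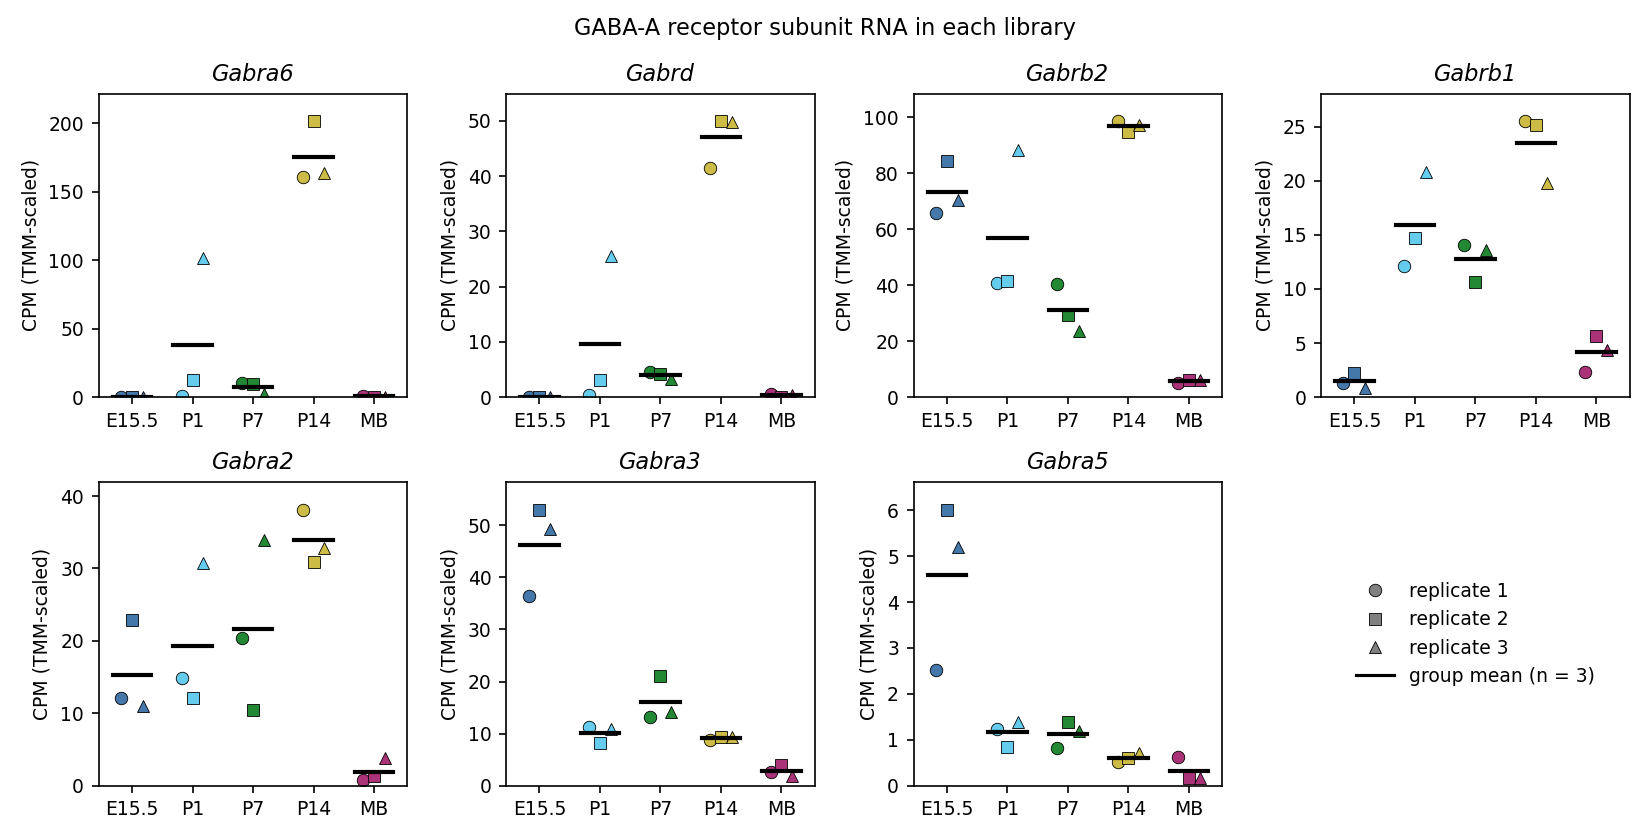
TMM-scaled CPM of the 7 subunits in each of the 15 libraries, 1 panel a gene with its own linear axis from 0, where symbols mark replicates and bars group means (n = 3). Gabra6 and Gabrd were highest at P14, Gabra3 and Gabra5 at E15.5, Gabrb2 was lower at P7 than at E15.5 or P14, and P1 replicate 3 lay above the other P1 libraries in Gabra6, Gabrd, Gabrb2, Gabrb1 and Gabra2.

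Over all genes 46.3% were called between P1 and E15.5 (25.4% higher, 20.9% lower), and of the 7 members 3 were called higher (Gabra6, Gabrb1, Gabrd) and 2 lower (Gabra3, Gabra5). Between P14 and E15.5, where 50.9% of genes were called (26.7% higher, 24.2% lower), Gabra6, Gabrb1 and Gabrd were higher and Gabra3 and Gabra5 lower. Both comparisons share the E15.5 libraries. With only P14 and E15.5 in the fit all 7 members were called, Gabra2 and Gabrb2 as higher, and DESeq2 called 6. Calls over all genes were also more numerous there, 8458 of 14846 with only these groups and 8176 of 15259 by DESeq2, against 7766 of 15259 in the main fit. No member was called between P7 and P1, against 3.15% of all genes (1.40% higher, 1.74% lower), and 3 (Gabra3, Gabra6, Gabrb2) had an unadjusted p under 0.05 by edgeR. DESeq2 called 1 there, Gabrb2. Between P14 and P7, with 10.3% of genes called (5.81% higher, 4.51% lower), 3 members were higher (Gabra6, Gabrb2, Gabrd) and none was lower, and with the counting set as a term 0 were called. No member was called between P14 and P1, where 8.94% of genes were (3.63% higher, 5.31% lower), with 3 (Gabra6, Gabrb2, Gabrd) at an unadjusted p under 0.05 by edgeR and 0 called by DESeq2. Without P1 replicate 3 that count was 3, all higher at P14 (Gabra6, Gabrb2, Gabrd), where 17.5% of genes were called and 9.54% were higher. Of all genes 55.7% differed among the 4 ages, as did 6 of the 7 members.

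To set subunits side by side, CPM was divided by the length in kb of the deposited mm9 transcript model, and each subunit was taken as a share of its class in a library. These shares depend on the model lengths. Among the 6 alpha subunits, Gabra3 made up 44.5 ± 2.91% (SD, n = 3) of the class at E15.5, 9.71 ± 5.75% at P1, 14.9 ± 4.60% at P7 and 2.24 ± 0.130% at P14. The share of Gabra6 went from 0 at E15.5 through 9.81 ± 5.29% at P7 to 63.2 ± 3.72% at P14. At P1 it ranged from 2.26% in replicate 1 to 53.1% in replicate 3. Gabra5 went from a share of 5.91 ± 1.51% at E15.5 to 0.204 ± 0.0372% at P14. The class as a whole summed to 28.5 ± 5.78 CPM per kb at E15.5, 30.1 ± 2.91 at P7 and 112 ± 7.88 at P14. The share of Gabra2 was 12.7 ± 2.09% at P14 and 15.1 to 51.1% at P7, highest in P7 replicate 3, and its CPM overlapped between these ages.

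Among the gamma and delta subunits Gabrd made up 0.0722 ± 0.0744% at E15.5, 12.6 ± 1.30% at P7 and 53.1 ± 3.27% at P14. At P1 it ranged from 0.992% in replicate 1 to 34.9% in replicate 3. No test was run on the shares.

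**Figure D2:**
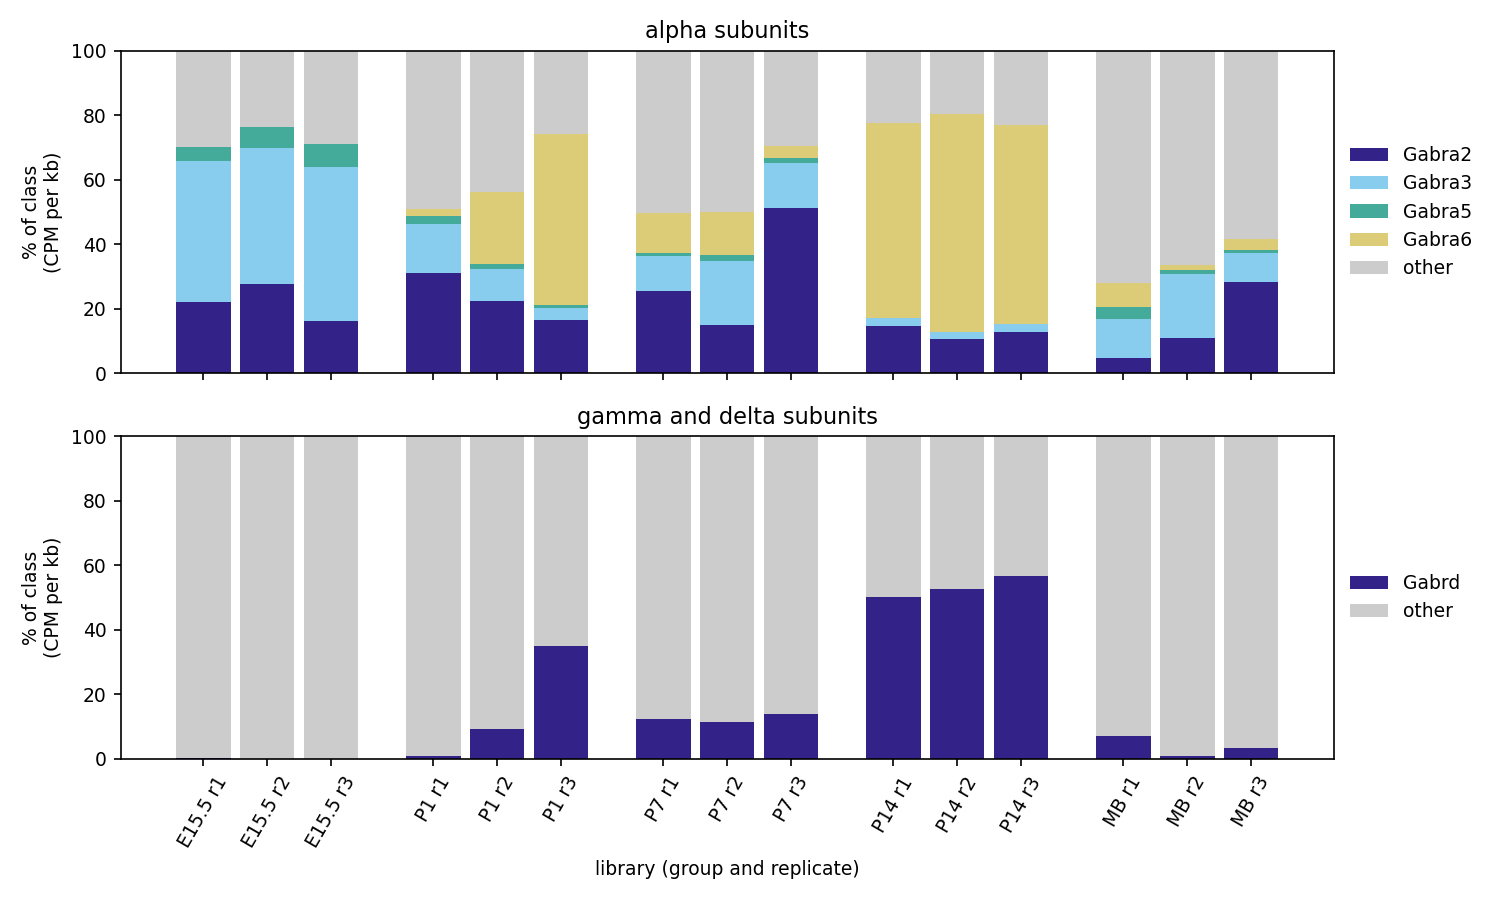
Share of the alpha members (top) and of Gabrd (bottom) in their class, in percent of the class sum of CPM per kb, for each of the 15 libraries named by group and replicate (r1 to r3), with all other subunits of the class in grey. Gabra3 was the largest share among the members at E15.5 and Gabra6 at P14 (63.2% on average), and Gabrd reached 53.1% at P14.

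All 7 members were called lower in MB than in P7 precursors, an age at which precursors divide actively, where 34.5% of all genes were called (13.7% higher, 20.7% lower). No MB library reached the lowest P7 library for any of the 7, which held for 23.9% of all tested genes. The log2 changes were -3.47 ± 0.58 for Gabra2 (FDR 2.57e-04), -2.52 ± 0.29 for Gabra3 (FDR 9.13e-06) and -2.41 ± 0.29 for Gabrb2 (FDR 1.23e-05). In pooled counts these were falls of 10.9-fold, 5.48-fold and 5.36-fold, and that of Gabra2 was 17.9-fold without MB replicate 3. Gabrb1 was 1.62 ± 0.35 lower on the log2 scale (FDR 0.00188).

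The calls of the other three rested on fewer counts, 48 for Gabra6, 29 for Gabrd and 27 for Gabra5 over all MB libraries. Their log2 changes were -3.73 ± 1.21 (FDR 0.0291), -3.53 ± 1.02 (FDR 0.0139) and -1.84 ± 0.51 (FDR 0.0103). Without MB replicate 2 all 3 calls were lost, with log2 changes of -3.26 (FDR 0.101), -2.99 (FDR 0.0610) and -1.50 (FDR 0.0553). This left 4 members called, where 4649 of 15441 genes were called. Gabra5 was also lost with only the groups compared (-1.81, FDR 0.0629). Gabra6 was also lost without P7 replicate 1 or 2 or MB replicate 3, and with the counting set as a term both Gabra6 (FDR 0.274) and Gabrd (FDR 0.180) were. Inside the set of 6 libraries, where MB had only replicate 1 and that library was taken to vary like the others, Gabra6 (-2.70, FDR 0.0441) and Gabrd (-2.90, FDR 0.00850) were called and Gabra5 was not (-0.78, FDR 0.423).

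Against P14, 6 members were called lower in MB, with 50.0% of all genes called (22.9% higher, 27.2% lower). This comparison shares its MB libraries with the former. Gabra6 was 335-fold lower in pooled counts, with a counting interval of 252 to 454, and Gabrd was 148-fold lower. Single libraries moved both: without MB replicate 1 Gabra6 was 581-fold lower, and without MB replicate 2 Gabrd was 94.8-fold lower. Gabrb2 was lower by 4.04 ± 0.31 on the log2 scale (FDR 1.31e-07), Gabra2 by 4.13 ± 0.59 (FDR 4.31e-05), Gabrb1 by 2.50 ± 0.35 (FDR 3.91e-05) and Gabra3 by 1.70 ± 0.28 (FDR 1.66e-04). For Gabra5 the 2 groups overlapped and the change was -0.94 ± 0.52 (FDR 0.145), which became -1.83 (FDR 0.00832) without MB replicate 1. The median log2 change of the 7 members was -4.04 against P14 and -2.52 against P7, where the medians of all tested genes were 0.01 and 0.02.

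**Figure D3:**
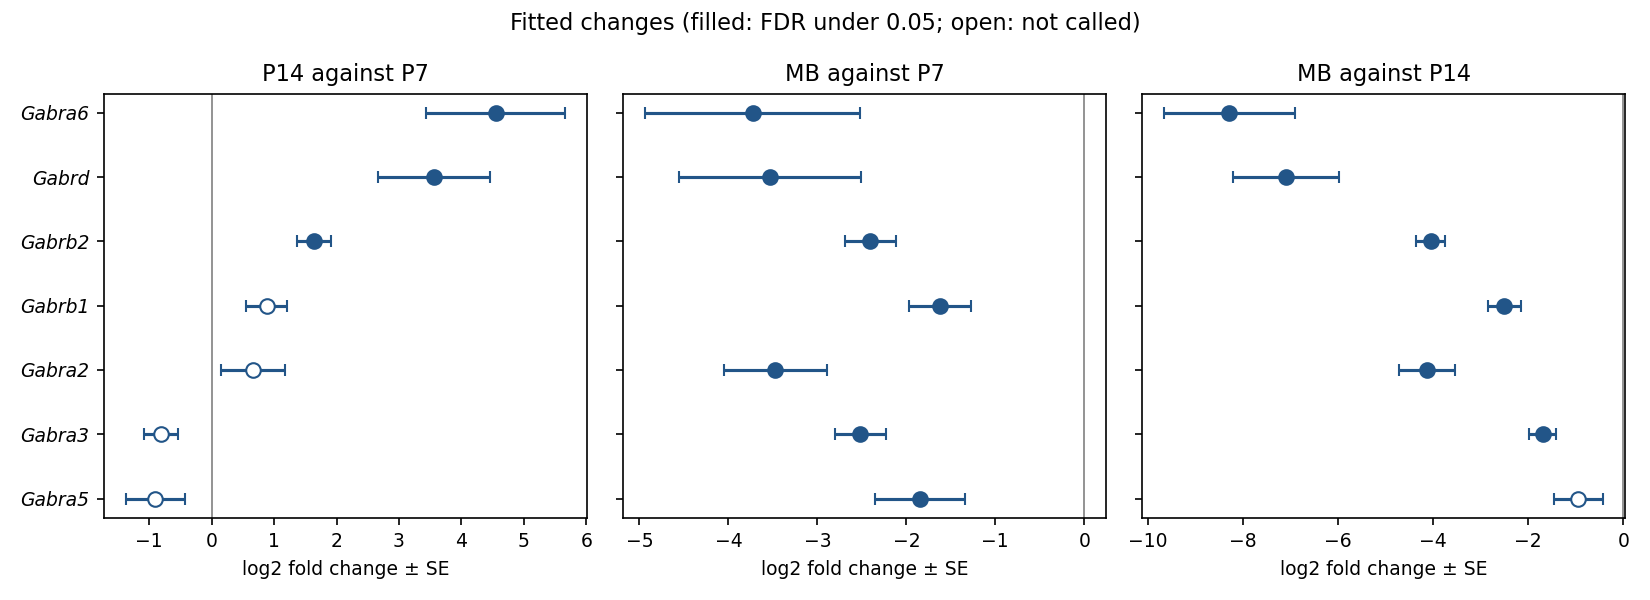
Fitted log2 fold changes of the 7 subunits with their standard errors from edgeR in 3 comparisons, each panel with its own axis, filled where the FDR was under 0.05. At P14 against P7 the called Gabra6, Gabrd and Gabrb2 and the uncalled Gabrb1 and Gabra2 lay above 0, and all 7 lay below 0 in MB, with Gabra5 against P14 as the 1 open point there.

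MB and E15.5 cells were set side by side only as levels, since no test of that pair was run. Gabra3 and Gabra5, the members highest at E15.5, were 15.3-fold and 15.2-fold lower in MB in pooled counts, and Gabrb2 was 12.1-fold lower. Without MB replicate 1, which held 16 of its 27 MB counts, Gabra5 was 26.9-fold lower. Gabrb1 was 3.57-fold higher in MB than at E15.5. Gabra6 was present in MB (48 counts) and had 0 counts at E15.5. In bulk RNA, fewer cells of a type and less RNA in each cell cannot be told apart.

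Of the 12 other GABA-A genes in the table, 10 were tested, and Gabrp and Gabrr3, with at most 5 counts each over all libraries, were not. Between P14 and E15.5 5 were higher and 2 lower, against 26.7% and 24.2% of all genes. Gabra4, an alpha subunit of receptors outside synapses, rose by 2.05 ± 0.27 on the log2 scale (FDR 2.09e-05), Gabrg1 by 3.71 ± 0.49, Gabrg3 by 1.93 ± 0.44 and the scarce Gabrr1 by 3.34 ± 0.62. Gabrq fell by 2.24 ± 0.51.

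In MB 7 of these 10 were lower than at P7 and none was higher, against 20.7% and 13.7% of all genes. Gabra4 fell by 1.17 ± 0.26 on the log2 scale (FDR 0.00250), Gabrg3 by 2.88 ± 0.46 and Gabrq by 2.96 ± 0.61, and Gabra4 made up 60.4 ± 6.60% of the alpha class in MB. The sum of the alpha class was 5.38 to 6.10 CPM per kb in MB and 27.8 to 33.3 at P7.

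GABA-A genes lie in clusters, here taken as neighbours within 2 Mb in the deposited mm9 positions. On chromosome 11 Gabra6 was called higher at P14 than at E15.5 and its neighbour Gabrb2 was not (0.40, FDR 0.229). Both were called higher at P14 than at P7, but the Gabra6 call was lost when any single P7 or P14 library was left out. In the chromosome 5 cluster (Gabrg1, Gabra2, Gabra4, Gabrb1), Gabrg1, Gabra4 and Gabrb1 were called higher at P14 than at E15.5 and Gabra2 was not called. On chromosome 7 Gabrg3 rose and its neighbour Gabra5 fell in that comparison. On the X chromosome Gabra3 and Gabrq fell and Gabre gave -0.80 (FDR 0.346). Gabrd had no GABA-A neighbour.

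Genes that act with these receptors were counted from lists. Of all tested genes 34.5% were called between MB and P7 (13.7% higher, 20.7% lower). Of 19 scaffold and trafficking genes, 14 were not called there, among them Gphn, which encodes the scaffold gephyrin (-0.25, FDR 0.268). The 4 lower ones were Iqsec3 (-5.26 ± 0.44), Slitrk3 (-2.11 ± 0.26), Plcl1 (-1.39 ± 0.28) and Trak2 (-0.78 ± 0.21), and Mdga1 was higher (0.94 ± 0.30). The median of this list was -0.22, and its count of 4 lower genes in 19 was near the share of all genes. Iqsec3 and Slitrk3 are components of inhibitory synapses, and Mdga1 is known to restrain the synaptic adhesion protein encoded by Nlgn2.

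Of 11 genes for chloride transport and carbonic anhydrases, which set the chloride and bicarbonate gradients the receptor works on, 7 were higher and 1 lower at P14 than at E15.5. Of all tested genes 26.7% were higher and 24.2% lower. Slc12a5, which encodes the chloride exporter KCC2, rose by 1.95 ± 0.51 on the log2 scale (FDR 0.00524), and the importer gene Slc12a2 rose by 2.18 ± 0.24 (FDR 3.51e-06). In MB Slc12a5 lay at 2.06 to 4.16 CPM against 19.4 to 46.2 CPM at P7, a change of -3.34 ± 0.55 (FDR 2.30e-04). Of 6 genes of GABA uptake and breakdown, 3 were lower in MB than at P7 and 1 was higher, against 20.7% and 13.7% of all genes. The higher one was Slc6a11, the GABA transporter GAT-3 of astroglia (1.92 ± 0.29, FDR 1.25e-04), with 156.7 to 313.9 CPM in MB against 44.2 to 82.1 CPM at P7. The astroglia and Bergmann glia list summed to 1883 to 2195 CPM in MB and 2414 to 4721 CPM at P7. The part of such cells in the Slc6a11 value was not tested. Of 5 GABA-B receptor genes tested, 4 were lower in MB than at P7, against 20.7% of all genes. Among the 4 was the receptor subunit gene Gabbr2 (-2.98 ± 0.36).

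The genes whose log2 CPM followed each member most closely over the 15 libraries were taken from 11570 candidates, as a description in which all points share the 5 groups. For Gabra6 they were Mal (Pearson r 0.988), Ermn (0.982) and Fam107a (0.980), and for Gabrd Ermn (0.989) and Mal (0.983). Mal and Ermn encode myelin or oligodendrocyte proteins. For Gabrb2 the closest was Dync1i1 (0.980), a dynein subunit gene, for Gabra2 the receptor gene Ephb1 (0.976), for Gabra3 the phosphatase gene Ptpn5 (0.975) and for Gabra5 Fam169a (0.959). For Gabrb1 the closest was Col4a2 (0.972), a gene of vascular basement membrane, followed by Ets1 (0.972) and H6pd (0.971).

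Markers of several other cell types moved with these members between some groups, but the microglia and macrophage list did not follow them in MB. It summed to 44.6 to 139.0 CPM at P7 and 137.9 to 397.5 CPM in MB. Of its 8 markers 4 were called higher in MB than at P7 and 0 lower, against 13.7% and 20.7% of all genes. The 10 oligodendrocyte lineage markers summed to 96.5 to 121.4 CPM at E15.5, 1089 to 2182 CPM at P7, 6669 to 7201 CPM at P14 and 679.6 to 974.3 CPM in MB. In the 3 P1 libraries the sum was 642.2, 1084 and 4300 CPM, in the same order as Gabra6 and Gabrd. All 10 of these markers were called higher at P14 than at E15.5, against 26.7% of all genes. Between P14 and P7, 3 were higher and 1 lower, against 5.81% and 4.51% of all genes. The 13 markers of granule neuron maturation summed to 1466 to 2263 CPM at E15.5, 4231 to 4604 CPM at P7, 5458 to 6321 CPM at P14 and 1283 to 1809 CPM in MB, and to 1788, 1676 and 4329 CPM in the P1 libraries. Between P14 and P7, 6 of these 13 were called higher and 0 lower, against 5.81% and 4.51% of all genes. In MB 7 were lower and 0 higher than at P7, against 20.7% and 13.7% of all genes. All 13 were lower in MB than at P14, against 27.2%. In P1 replicate 3, 8 of the 13 maturation markers lay above every P7 library, as Gabra6 did, 3 lay below every P7 library and 2 within the P7 range, so its sum at the level of P7 does not describe the single genes. The share of all genes above every P7 library in P1 replicate 3 was not computed, so this count does not set the list apart.

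Among the maturation markers Cbln3, a granule neuron gene, lay at 5.45, 21.6 and 158.9 CPM in the P1 libraries, at 9.01 to 15.1 CPM at P7 and at 243.2 to 261.1 CPM at P14. It ordered the P1 libraries as Gabra6 did, and its P7 values were likewise all below P1 replicate 3. Grin2c, an NMDA receptor subunit gene of granule neurons, lay at 63.2 CPM in P1 replicate 3 and 3.75 to 6.40 CPM at P7, and Vsnl1 at 58.1 against 10.1 to 14.3 CPM. The abundant Neurod1 went the other way, at 953.0 CPM against 1146 to 1868 CPM at P7. Of the 10 oligodendrocyte markers, 6 lay above every P7 library in P1 replicate 3, 1 below every P7 library and 3 within the P7 range. No share over all genes was computed for this count either. The endothelial list summed to 6.76 to 26.8 CPM at E15.5, 302.0 to 461.4 CPM at P1, 599.5 to 638.1 CPM at P14 and 17.9 to 30.6 CPM in MB, and the pericyte and fibroblast list to 17.7 to 37.2, 455.1 to 689.3, 800.5 to 935.1 and 19.5 to 31.7 CPM. Both were low in E15.5 and MB, as was Gabrb1. The choroid plexus list summed to 27.4 to 295.4 CPM at E15.5, 5159 to 8558 CPM at P14 and 36.4 to 192.8 CPM in MB. Its sums were 299.7, 10410 and 3929 CPM in the P1 libraries and 14.8, 476.0 and 1989 CPM in the P7 libraries. Within P1 and within P7 these sums were not in the order of Gabra6, and no order of 3 libraries named here was tested. The astroglia list summed to 357.6 to 510.5 CPM at E15.5, 4019 to 5303 CPM at P14 and 1883 to 2195 CPM in MB. Both lists were higher at P14 than at E15.5, as were the members that rose. All 6 choroid plexus and all 10 astroglia markers were called higher both at P1 and at P14 than at E15.5. Of all genes 25.4% and 26.7% were. The 10 GABAergic interneuron markers summed to 798.9 to 961.0 CPM at E15.5, 309.0 to 468.8 CPM at P1, 164.9 to 245.8 CPM at P14 and 40.8 to 59.6 CPM in MB, high and low in the same groups as Gabra3 and Gabra5. All 10 were called lower at P14 than at E15.5, against 24.2% of all genes. So were all 5 markers of glutamatergic nuclear and unipolar brush cells, which summed to 201.2 to 432.0 CPM at E15.5, 51.2 to 59.0 CPM at P14 and 2.61 to 4.72 CPM in MB. The Purkinje cell list was lower in MB (85.7 to 168.4 CPM) than at P7 (394.6 to 1003 CPM). Of its 10 markers 8 were called lower and 1 higher, against 20.7% and 13.7% of all genes. Skor2 had no count in MB, while Foxp2 lay at 56.3 to 123.2 CPM in MB and 14.9 to 20.55 CPM at P7. The part of these other cells in the values of the 7 members was not tested.

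**Figure D4:**
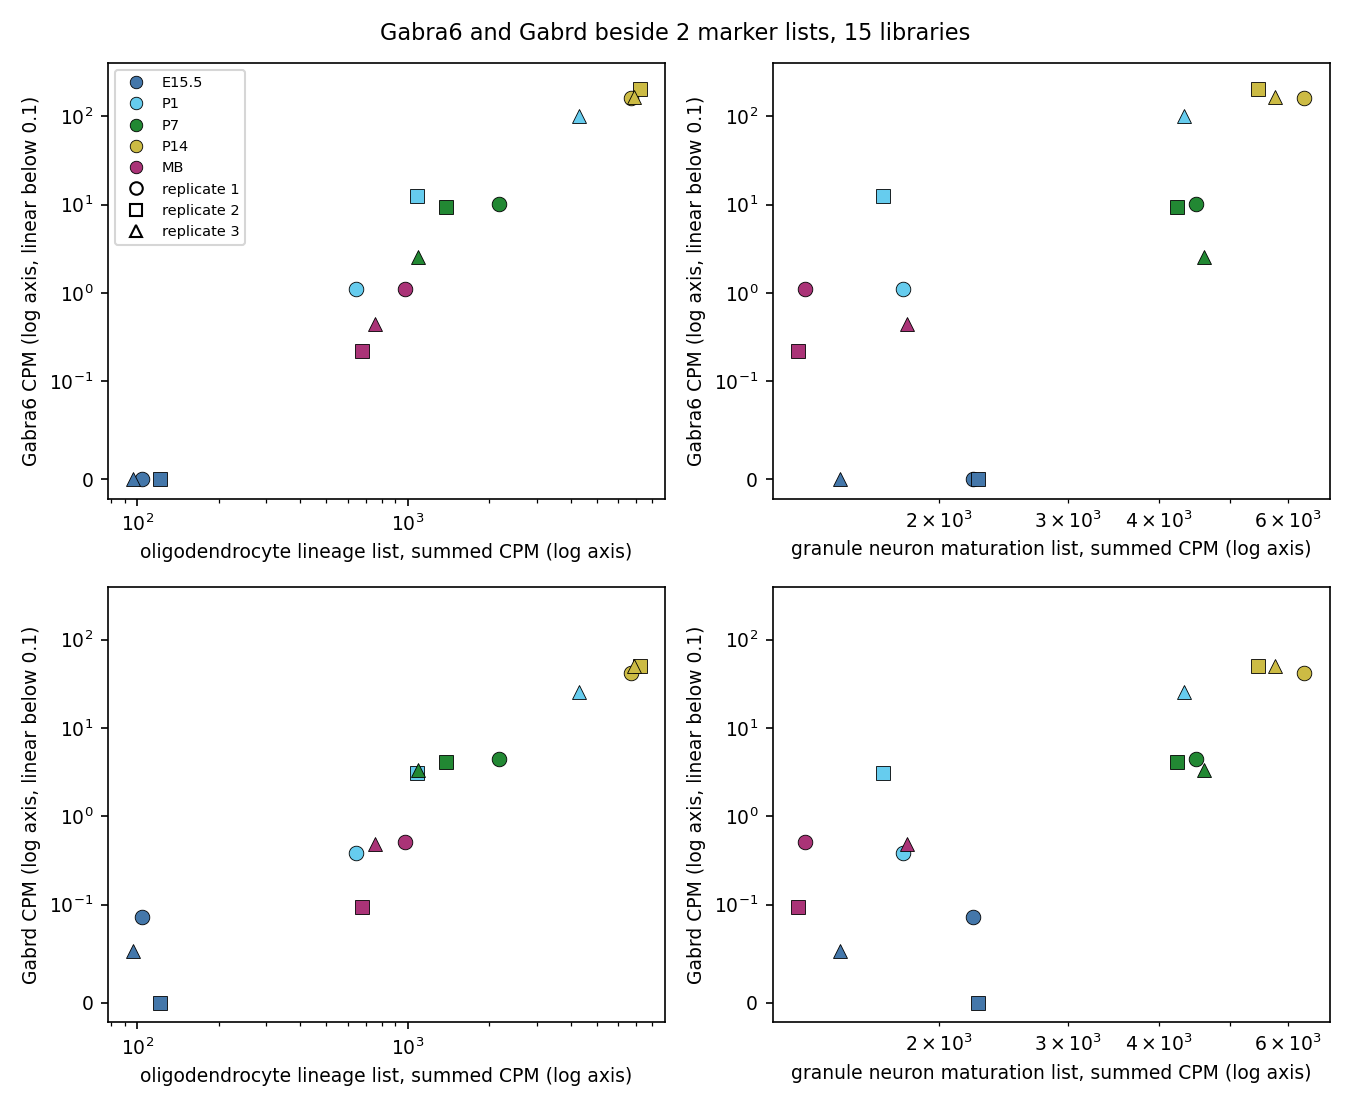
Gabra6 (top) and Gabrd (bottom) in TMM-scaled CPM, on a log axis that is linear below 0.1, against the summed CPM of the 10 oligodendrocyte lineage markers (left) and the 13 granule neuron maturation markers (right) on log axes, with 1 point a library coloured by group. P1 replicate 3 is the library nearest to P14 on the left and at the level of P7 on the right. In that library 8 of the 13 maturation markers were above every P7 library, a count for which no share over all genes was computed. The P7 libraries hold 2.54 to 10.3 CPM of Gabra6 at a maturation sum of 4231 to 4604 CPM.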

How the data were processed

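RNA-seq was analysed in 15 mouse libraries, 3 in each of 5 groups. Per the labels, RNA was lysed in Trizol, poly(A)-selected and prepared with TruSeq v2 for sequencing on a HiSeq instrument. The submitters' processing notes name Trimmomatic, TopHat, StringTie, HTSeq and the build mm9, and give no versions. The authors deposited raw counts per gene, per transcript and per transcription start site (TSS) model. Whether counting used strand is not given in the sources used here. The gene table gave all results of the report. Its summary lines, which name no gene, were kept out, and genes took 39.5 to 55.4% of the records across libraries.

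Genes were filtered with filterByExpr (minimum count 10, minimum total 15), scaled with TMM and tested with edgeR 4.0.16 (quasi-likelihood F-test, R 4.3.3) in 1 fit of all 15 libraries with 10 residual degrees of freedom, adjusted by Benjamini-Hochberg over 15259 genes. SE is the log2 change divided by the root of F. Ratios of pooled counts carry exact 95% intervals that cover counting error only, and a group at 0 was set to 3 counts over the group. The fit was checked on simulated counts. Symbols were matched for 20358 of 21889 genes. Promoters are RefSeq, GRCm38.p6.

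The members, marker lists and pathway lists were chosen with earlier results of these data known. Named beside the members are genes of these lists called in P14 against P1, P14 against E15.5 or MB against P7, the 3 genes with the highest Pearson correlation with a member among tested genes averaging 5 CPM or more (prior count 2), and cluster neighbours. Some genes that this rule names are not reported here. Gphn, Cbln3, Grin2c, Vsnl1, Neurod1 and uncalled neighbours were named after their values were seen. Alternatives were DESeq2 1.42.0, other scaling (RLE), no filter, the groups compared alone, the other tables, the counting set, the replicate number as a block and leaving out each library.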

Additional observations from a re-analysis of the deposited data

How the results depend on the processing

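Of the recomputed values of single members, 770 kept their direction and side of the threshold, 27 lost the call, 17 gained it and 14 changed sign. Counts of members called, over leaving out single libraries, were 5 to 6 for P1 against E15.5, 0 to 0 for P7 against P1, 1 to 1 for P14 against P7 (3 with all libraries), 0 to 3 for P14 against P1, 5 to 6 for P14 against E15.5, 4 to 7 for MB against P7, 6 to 7 for MB against P14 and 6 to 6 for the 4 ages. The TSS model table, which holds only Gabra2, Gabra6 and Gabrb1, gave 2, 1, 2, 3, 3 and 2 for P1 against E15.5, P14 against P7, P14 against E15.5, MB against P7, MB against P14 and the 4 ages. Within the 9-library counting set, which holds 1 E15.5 library taken to vary like the others, the count was 3 for P1 against E15.5, where Gabra6 (13.05) and Gabrd (11.06) were no longer called, and 1 (Gabra5) for P14 against P1. In P14 against P7 it was 5 with DESeq2 or with only the groups compared (Gabra3 and Gabrb1 added) and 0 with the counting set as a term. DESeq2 gave 1 for P7 against P1, and the groups compared alone 1 (Gabra5) for P14 against P1.

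Changes of sign were among values that were not called in either setting. Gabra2 in P1 against E15.5 was -0.25 within the 9-library set and -0.48 with the set as a term. Gabra5 in P7 against P1 was 0.049 in the transcript table. With the set as a term Gabrb1 was 0.78 in P7 against P1 and -0.21 in P14 against P7, and Gabra2 was -0.67 in the latter. Over leaving out single libraries, Gabra2 ran from -0.18 to 0.73 in P1 against E15.5 (lowest without P1 replicate 3). In P7 against P1 the ranges were -0.32 to 0.68 for Gabra2, -0.22 to 0.16 for Gabra5, -2.93 to 0.13 for Gabra6 and -1.84 to 1.18 for Gabrd, those of Gabra6 and Gabrd highest without P1 replicate 3. The cause was not tested.

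The replicate block left all 8 counts of members called as they were (5, 0, 3, 0, 5, 7, 6 and 6). Same-numbered libraries showed no common deviation (correlation -0.31 to 0.33 over 30 pairs), and 4 of 15 libraries correlated best with their own number. No pairing by number was seen, but with 3 libraries a group a weak one could be missed. The depth limits Gabra5, Gabra6 and Gabrd in MB, with 27 to 48 counts, and Gabra6 and Gabrd at E15.5, with 0 and 4. For P14 against P7 and P7 against P1 no fit within 1 counting set was possible. Over all genes, the count called between P14 and P1 was 1364, with 2394 by DESeq2, 4089 in the groups compared alone, 4714 within the 9-library set and 154 to 2714 without single libraries. Between P14 and P7 it was 1574, with 2436 by DESeq2, 3838 in the groups compared alone, 295 with the set as a term and as few as 125 without P14 replicate 2. Between P7 and P1 it was 480, with 1209 by DESeq2, 203 in the groups compared alone, 197 with the set as a term, 248 with the replicate block and 9 to 888 without single libraries.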
